A study of Caenorhabditis elegans with 4 samples.

Results

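In C. elegans a gene that has received no gene name is called by the clone it was sequenced on and a running number, as in F09B12.3. The genes described here are those with only such a sequence name that stood clearly above a mixed reference in wild-type second-stage (L2) larvae. They were chosen from the measured values. After subtraction of each array's median over all probes and averaging of a gene's probes, a gene had to be measured on all 4 arrays, with a mean log2 ratio of 1.2 or higher and 0.5 or higher on every array. That gave 69 genes of 5618 sequence-named genes measured on all 4 arrays, or 1.23%, within 14511 genes with 1 name in all. The same limits were met by 188 of 8893 genes with a gene name, or 2.11%, and by 257 of all 14511 genes, or 1.77%. With the limits turned to low ratios they were met by 273 sequence-named genes, or 4.86%, and by 474 named genes, or 5.33%. As the ratios made the list, the levels below are a description and carry no test.

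RNA was prepared 4 times from L2 worms of the wild type (preps 1 to 4). Each prep shared a 2-colour array with a reference, mixed RNA of the wild type, and the sources used here do not give what that mix contained. The labels name no mutation, treatment, culture condition or age beyond the stage, and no sorting of cells, so the RNA is taken as that of whole larvae. A value is a log2 ratio. By the labels, channel 2 carried the L2 RNA and channel 1 the reference. Dyes are not named, so a positive ratio is read as likely higher in L2. On that reading the yolk protein genes, made by the adult intestine, had a median of -5.42 over 3 measured members, and the major sperm protein genes, of the crawling sperm, had a median of -3.19 over 28. L2 larvae have neither eggs nor sperm. The other marker lists, of 4 to 6 genes each, had medians of 2.23 for pharynx, 1.74 for body wall muscle and 0.45 for hypodermis. The medians were 0.17 for intestine, -0.18 for neurons and -1.59 for the germ line. Gene means were all positive for pharynx and body wall muscle and all negative for the germ line. They ran from -3.61 to 2.05 for hypodermis, -2.21 to 3.22 for intestine and -0.53 to 0.94 for neurons. Those 3 lists thus had no common direction. In whole animals, fewer cells of a type and less RNA per cell cannot be told apart.

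The L2 stage lies between the hatchling and the later larvae in which the gonad and vulva are built. Its cells are mostly those of the gut, the epidermis that secretes the cuticle, the muscles, the pharynx and the nervous system, with a small germ line. Worm genes without a name are often of families that expanded in nematodes, and duplicated copies commonly lie side by side on a chromosome. The platform's annotation gives no function for the 69 genes, and the gene table used here adds a gene class and an order along the chromosome but no product. No role is therefore given to a member. A newer RefSeq gene table (assembly WBcel235) held 68 of the 69 by gene ID and left B0310.6 without a match.

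Prep 3 stood apart from the other arrays. Its ratios correlated with those of preps 1, 2 and 4 at r = 0.476, 0.564 and 0.490 over all probes, against 0.670 to 0.728 among the other 3. The spread of the deposited ratios over all probes also differed, with an SD of 0.924, 1.02, 0.795 and 0.712 for preps 1 to 4. The dates in the array titles place preps 1 and 2 in one month and preps 3 and 4 in another. Results below are therefore given by prep, and with and without prep 3 where they turn on it.

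The members ran from a mean log2 ratio of 3.08 at F09B12.3 to 1.21 at K06H6.2, with a median of 1.63, against 0.00 over all 14511 genes and 0.01 over the 19941 features of the fit. A mean of at least 2 was reached by 20 members, and a mean of at least 2.5 by 11. F09B12.3, on the X chromosome, had 4.08, 3.33, 1.95 and 2.96 in preps 1 to 4, a mean of 3.08 ± 0.89 (SD, n = 4) or 8.45-fold. C02E7.6 had 3.46, 3.45, 1.8 and 3.04, a mean of 2.94 ± 0.78. The neighbouring C02E7.7 had 3.80, 3.16, 1.95 and 2.72, a mean of 2.91 ± 0.78. Prep 3 was the lowest of the 4 in all of these and prep 1 the highest. Y48E1B.8 repeated that order at the ends, with 3.77, 2.97, 1.72 and 3.21 and a mean of 2.92 ± 0.87. C14C6.5 had almost the same mean, 2.92 ± 0.53, from 3.08, 2.64, 3.59 and 2.37. In C14C6.5 prep 3 was the highest value and prep 4 the lowest, while in Y48E1B.8 prep 3 was the lowest. The means of these 5 genes lay closer together than the SD of any of them, and their order is not a measured difference.

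**Figure D1:**
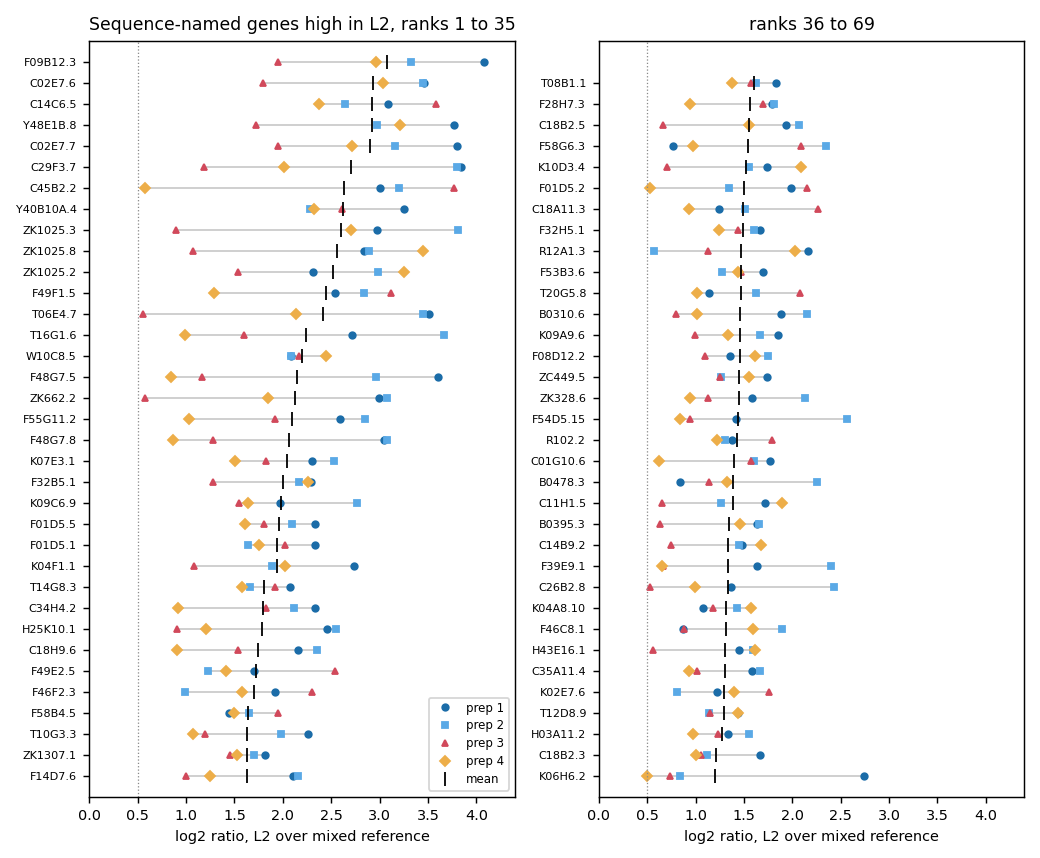
Log2 ratio of L2 over the mixed reference (horizontal axis) for each of the 69 genes (rows, by falling mean), with 1 point per prep, a black tick at the mean and a grey line over the range; the dotted line is the limit of 0.5. Prep 3 (triangles) holds the lowest value of 27 genes, or 39.1%, and prep 4 (diamonds) that of 28, or 40.6%. Over all genes the shares are 31.0% and 19.2%. Prep 1 (circles) holds the lowest value of 6, or 8.70%, against 19.3% of all genes.

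The next genes by mean showed wider spreads. C29F3.7 had 3.84, 3.80, 1.18 and 2.02, a mean of 2.71 ± 1.33. C45B2.2 had 3.00, 3.20 and 3.77 in preps 1 to 3 but 0.57 in prep 4, a mean of 2.64 ± 1.42, the largest SD among the members. Its level in L2 thus rests on 3 of the 4 preps. The pseudogene Y40B10A.4 was steadier, at 3.26, 2.28, 2.61 and 2.33 (mean 2.62 ± 0.45). F49F1.5 had 2.54, 2.84, 3.12 and 1.29, a mean of 2.45 ± 0.81, again with prep 3 on top and prep 4 at the bottom. T06E4.7, just after the 12 highest, had 3.52 and 3.44 in preps 1 and 2, 0.55 in prep 3 and 2.14 in prep 4.

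The wide spreads lay mostly among the higher members. The limit per prep takes out variable genes more readily when their mean is low. The choice of genes thus favours this pattern, and nothing further is read from it. Of all 69 members, 20 had a mean of at least 2. Of the 10 members with an SD above 1, 9 had a mean above 2, and of the 11 with an SD under 0.25, 10 had a mean of 2 or lower. The exception among the steady ones was W10C8.5, which had 2.09, 2.09, 2.17 and 2.44, a mean of 2.2 ± 0.17, or 4.59-fold. W10C8.5, C14C6.5 and Y40B10A.4 were the 3 members at 2 or higher in every prep. At 1.5 or higher in every prep stood 13 members, namely these 3 and F09B12.3, C02E7.6, C02E7.7, Y48E1B.8, ZK1025.2, K07E3.1, K09C6.9, F01D5.1, F01D5.5 and T14G8.3. Ratios of 1 or higher in every prep were reached by 33.

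The 6 smallest SDs belonged to ZK1307.1, W10C8.5, T12D8.9, F53B3.6, T08B1.1 and F32H5.1, from 0.17 to 0.19. ZK1307.1 had 1.82, 1.71, 1.45 and 1.53, a mean of 1.63. T12D8.9 had 1.44, 1.14, 1.15 and 1.44, a mean of 1.29 over 3 probes. F53B3.6 had 1.70, 1.27, 1.47 and 1.44. These genes were 2.45-fold to 3.09-fold above the reference with preps that differed little. T08B1.1 had 1.83, 1.62, 1.58 and 1.38, and F32H5.1 had 1.66, 1.60, 1.44 and 1.24.

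The 6 largest SDs were those of C45B2.2, T06E4.7, F48G7.5, C29F3.7, ZK1025.3 and T16G1.6, from 1.42 down to 1.19. T16G1.6 had 2.72, 3.66, 1.60 and 0.99. F48G7.5 had 3.61, 2.96, 1.16 and 0.85. Its neighbour F48G7.8 followed it closely in each prep, with 3.05, 3.08, 1.28 and 0.86. In each of these 3 genes preps 1 and 2 were above preps 3 and 4 without overlap. The median SD of the 69 genes was 0.57, of the 188 named genes within the same limits 0.51, and of all 14511 genes 0.37.

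**Figure D2:**
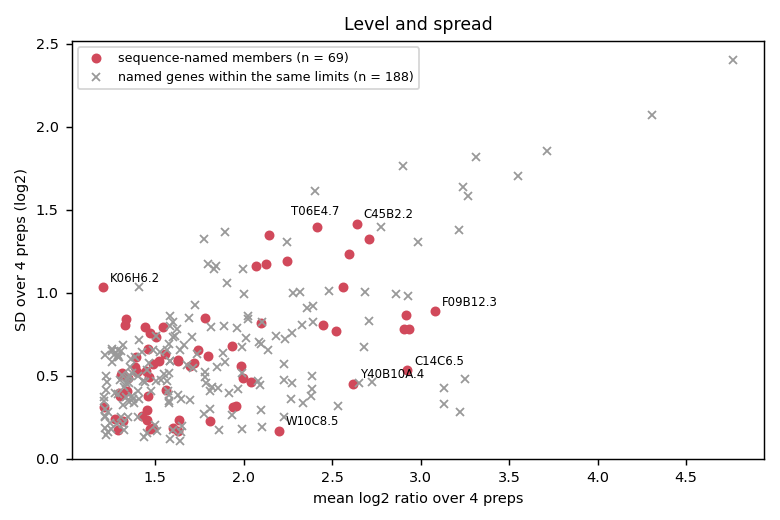
SD over the 4 preps (vertical axis, log2) against the mean log2 ratio (horizontal axis), with 1 point per gene, for the 69 sequence-named members (circles) and the 188 named genes within the same limits (crosses). W10C8.5 lies lowest among the members with a mean above 2, at an SD of 0.17, and C45B2.2 highest, at 1.42.

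The members' ratios were uneven among the preps. The median of the 69 genes was 1.93, 2.07, 1.28 and 1.44 in preps 1 to 4. Ranked within each array among the 14511 genes, the median member stood at percentile 98.0, 98.1, 97.8 and 97.7. High ranks in every prep follow from the limit per prep that chose the genes, and nothing is read from them. In every prep 52 of the 69 were among the highest 10% of genes and 29 among the highest 5%. The lowest rank of any member was that of R12A1.3 in prep 2, at percentile 81.2, where its ratio was 0.57 beside 2.16, 1.12 and 2.03 in preps 1, 3 and 4.

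Of the 69 genes, 57, or 82.6%, had a higher mean in preps 1 and 2 than in preps 3 and 4, against 85.1% of the named genes within the same limits and 48.7% of all genes. In 36 members, or 52.2%, preps 1 and 2 were both above preps 3 and 4, against 53.7% of the named genes within the same limits and 16.4% of all genes. In 2 members preps 1 and 2 were both below, which held for 21.1% of all genes. The median difference was 0.49 for the members, 0.61 for the named genes within the same limits and -0.08 for all sequence-named genes. The named genes chosen by the same limits thus also had preps 1 and 2 on top in most cases, and the difference between both sets was not tested. That split moved with the scaling of the arrays. With the arrays scaled to equal spread 38 of the 69 were higher in preps 1 and 2, and with quantile normalization 31. The month of the arrays and the width of their ratios cannot be told apart here. Prep 3 held the lowest value of 27 members, or 39.1%, against 56.9% of the named genes within the same limits and 31.0% of all genes. Prep 4 held that of 28, or 40.6%, against 32.4% and 19.2%. After scaling the counts were 41 for prep 3 and 9 for prep 4, and after quantile normalization 25 and 16. Prep 3 also had a body wall muscle marker median of -0.11 over 4 genes, against 2.15 to 2.39 in the others, and a pharynx marker median of 0.49 over 5 genes, against 2.09 to 2.69. The part of these tissues in the members' low values in prep 3 was not tested.

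A smaller set went the other way. Prep 3 held the highest value of 11 members, namely C14C6.5, C45B2.2, F49F1.5, F49E2.5, F46F2.3, F58B4.5, F01D5.2, C18A11.3, T20G5.8, R102.2 and K02E7.6. F49E2.5 had 1.71, 1.23, 2.53 and 1.41. F46F2.3 had 1.92, 0.99, 2.31 and 1.57. C18A11.3 had 1.24, 1.51, 2.26 and 0.93. That prep 3 stood above each of the other preps holds for all 11 by this choice. F58B4.5 was flatter, at 1.44, 1.65, 1.95 and 1.49. T20G5.8 had 1.14, 1.63, 2.08 and 1.01, and R102.2 had 1.38, 1.30, 1.79 and 1.22. Prep 3 was the highest prep for 15.9% of the members, 12.2% of the named genes within the same limits and 39.4% of all sequence-named genes.

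Further members, picked after their values were seen, mostly had preps 1 and 2 on top. ZK662.2 had 2.99, 3.08, 0.58 and 1.85, and H25K10.1 had 2.46, 2.55, 0.91 and 1.21. F55G11.2 had 2.59, 2.85, 1.91 and 1.03, and C34H4.2 had 2.33, 2.12, 1.83 and 0.92. In the first pair prep 3 was lowest and in the second pair prep 4. K07E3.1 had 2.30, 2.53, 1.82 and 1.51 and K09C6.9 had 1.98, 2.77, 1.54 and 1.64. T14G8.3 was steadier, at 2.07, 1.67, 1.92 and 1.58, a mean of 1.81 ± 0.23. The other pseudogenes were K04F1.1 at 1.93 ± 0.68, F39E9.1 at 1.34 ± 0.84, K04A8.10 at 1.32 ± 0.23 and K02E7.6 at 1.30 ± 0.39. Cross-hybridisation of related genes to these probes was not tested.

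The limits cut through a continuum. Just inside the mean limit were K06H6.2 at 1.21, C18B2.3 at 1.21 and H03A11.2 at 1.27, and just outside C01B9.1 at 1.18, F37C4.6 at 1.17 and F27D4.4 at 1.16. Just inside the limit per prep, the lowest values were 0.50 in K06H6.2, 0.53 in F01D5.2 and 0.53 in C26B2.8. Just outside it were ZK6.8 at 0.50, rounded up from below the limit, F35A5.1 at 0.48 and Y45G12C.3 at 0.47. The limit per prep kept out 44 genes whose mean was high enough, and 35 of them failed in prep 3 alone. F35A5.1 is one of those, at 2.43, 2.45, 0.48 and 1.83. A further 79 genes passed 0.5 in every prep with a mean below 1.2. No sequence-named gene with a value on just 3 arrays met the limits on those 3.

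To use ratios that did not choose the genes, the same limits were applied to 3 preps and the genes were looked up in the prep left out. Chosen without prep 1, 74 genes had a median of 1.84 in prep 1, and 73 of them, or 98.6%, were at 0.5 or higher there, against 16.7% of all sequence-named genes. Without prep 2, 62 genes had a median of 2.03 in prep 2 and all 62 were at 0.5 or higher, against 19.4%. Genes high in the other preps were thus nearly all high in preps 1 and 2 as well. Without prep 4, 87 genes had a median of 1.24 in prep 4, and 83.9% were at 0.5 or higher, against 9.20%. Prep 3 gave another picture: of 150 genes chosen without it, 76 were at 0.5 or higher in prep 3, or 50.7% against 20.3% of all sequence-named genes. Their median there was 0.53, and 72.0% were above 0, against 52.4%. All 4 arrays share the reference, so these values leave out the reference's own spread. The other prep of the same month was also always among the 3 that chose the genes.

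**Figure D3:**
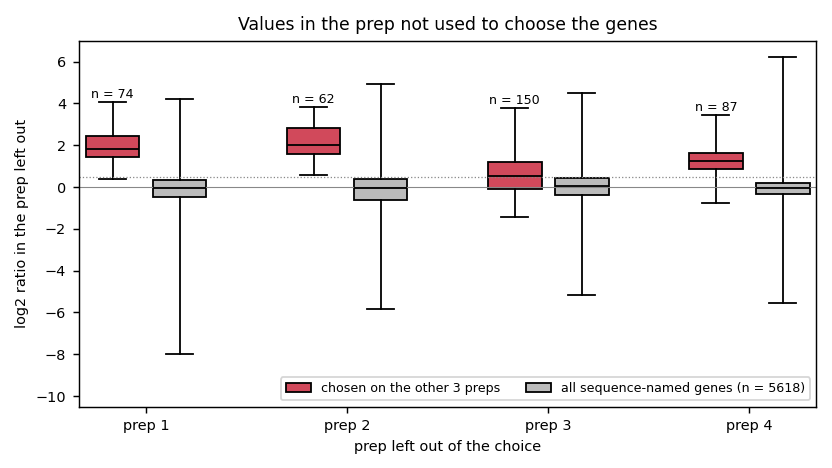
Log2 ratio (vertical axis) in the prep named below the axis, for genes chosen by the same limits on the other 3 preps (red, n above each box) and for all 5618 sequence-named genes (grey); boxes give quartiles and median, and whiskers the full range. The red medians are 1.84, 2.03, 0.53 and 1.24 for preps 1 to 4, against -0.04, -0.05, 0.04 and -0.02 for the grey boxes.

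In the limma fit of L2 against the reference over 19941 features (Benjamini-Hochberg adjusted p under 0.05), 968 features were called higher in L2, or 4.85%, and 68 of the 69 members were among them. The fit uses the same ratios as the choice, so nothing is read from that count. The one member not called was K06H6.2, with 2.74 in prep 1 and 0.84, 0.74 and 0.50 in preps 2 to 4 (limma adjusted p = 0.076). Its mean of 1.21 rests on prep 1.

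Most members were read by 1 probe, and 6 had 2 or 3 probes. The 2 probes of F01D5.5 had means of 1.97 and 1.94, and the 3 probes of T12D8.9 had means of 1.47, 1.21 and 1.2. H43E16.1 was less even: its probes read 1.43 and -0.31 in prep 3, with means of 1.65 and 0.97. The low prep 3 value of H43E16.1, 0.56, is thus the average of 1 high and 1 low probe. One C11H1.5 probe was also below the other 2 in prep 3, at 0.19 against 0.89 and 0.90. The 2 probes of K02E7.6 had means of 1.57 and 1.03, and those of C35A11.4 1.24 and 1.37.

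Placed by the RefSeq table, 22 of the 68 matched members, or 32.4%, lay on chromosome V and 17, or 25%, on X. Of the 5580 matched sequence-named genes on all 4 arrays, 23.5% lay on V and 17.2% on X. For the named genes within the same limits the shares were 37.2% and 19.7%. Chromosome III held 4 members, or 5.88%, against 12.1% of the sequence-named genes. These shares were not tested. Pseudogenes made up 5 of the 68 members, or 7.35%, and 6.27% of the sequence-named genes.

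Some members lay side by side. Counting protein-coding genes and pseudogenes in order along the chromosome, 14 of the 68, or 20.6%, had another member at most 4 places away, in 6 stretches. Among the 188 named genes within the same limits, 55, or 29.3%, had another of their own set as near. A larger set has more close pairs by chance, so these shares cannot be compared directly. Whether the members lay closer than chance was not tested. Gene order was not used to choose the members, but near-identical neighbours can share a probe's signal, and their sequences were not analysed here.

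The longest stretch, on chromosome I, held ZK1025.2, ZK1025.3 and ZK1025.8 within 7 places. All 3 named genes measured between them had means above 1.2 too. ZK1025.2 had 2.32, 2.99, 1.53 and 3.26 in preps 1 to 4, a mean of 2.52 ± 0.77. ZK1025.3 had 2.98, 3.81, 0.89 and 2.70, a mean of 2.60 ± 1.23. ZK1025.8 had 2.84, 2.89, 1.07 and 3.44, a mean of 2.56 ± 1.03. Prep 3 was the lowest in each of the 3. Between them bah-1, a gene known for the surface coat to which Yersinia biofilm binds, was at 3.27 ± 1.58. The nuclear hormone receptor gene nhr-244 was at 1.36 ± 0.50 and gtnt-53 at 1.61 ± 1.06. In prep 3, though, gtnt-53 was at 0.06, below the limit per prep. Further out, nhr-259 at 1.58 ± 0.59 and nhr-73 at 2.27 ± 0.46 lay 3 and 4 places before ZK1025.2, and both encode nuclear hormone receptors. On the other side of ZK1025.8 the run ended, since the next gene, nhr-113, was at -0.47 ± 0.22. The probes of the 3 members lay in 3 different runs of the value table, numbers 29, 1 and 31 of 32, so they were not adjacent there. Those of nhr-244 and bah-1 shared run 9.

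On chromosome II, F01D5.1, F01D5.2 and F01D5.5 lay within 5 places. F01D5.1 had 2.34, 1.64, 2.02 and 1.75, and F01D5.5 had 2.33, 2.09, 1.81 and 1.61. F01D5.2 matched them in preps 1 and 3, at 1.99 and 2.15, but had 1.35 in prep 2 and 0.53 in prep 4. Between them F01D5.3 was at 0.81 ± 0.25, positive in all 4 preps but below the limit. Next past F01D5.5 was F01D5.6 at 0.01, and 4 places on lay the cytochrome P450 gene cyp-37A1 at 1.62 ± 0.78. The probes of F01D5.1 and F01D5.2 shared run 30 of the value table. The part of that shared position in their ratios was not tested.

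C02E7.6 and C02E7.7, with 2 of the 5 highest means, were direct neighbours on chromosome V. On the side of C02E7.7, the UDP-glucuronosyltransferase gene ugt-13 lay 3 places away with 5.56, 4.33, 1.88 and 2.43, a mean of 3.55 ± 1.70, and ugt-14 lay 4 places away at 1.53 ± 1.19. They were not contiguous with C02E7.7: H23N18.6 next to it was not measured, and H23N18.5, between H23N18.6 and ugt-13, was at 0.48 ± 0.63. Enzymes of this family add a sugar or a sugar acid to small molecules. On the side of C02E7.6 the next gene, C02E7.8, was at 0.14.

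The other 3 stretches had low genes in between. F48G7.5 and F48G7.8, also on V, lay 3 places apart, both with preps 1 and 2 above preps 3 and 4, while srt-17, a chemoreceptor gene, and F48G7.7 between them were at 0.47 ± 0.49 and 0.19 ± 0.14. On X, C18B2.3 (1.21 ± 0.31) and C18B2.5 (1.56 ± 0.63) flanked C18B2.4 at -0.27 ± 0.54. H03A11.2 (1.27 ± 0.24) and F46F2.3 (1.70 ± 0.56) flanked piki-1 at 0.24 and F46F2.1 at 0.35. F46F2.4, also between them, was not measured. The 5 genes measured between the members of these 3 stretches each had a mean below 0.5.

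**Figure D4:**
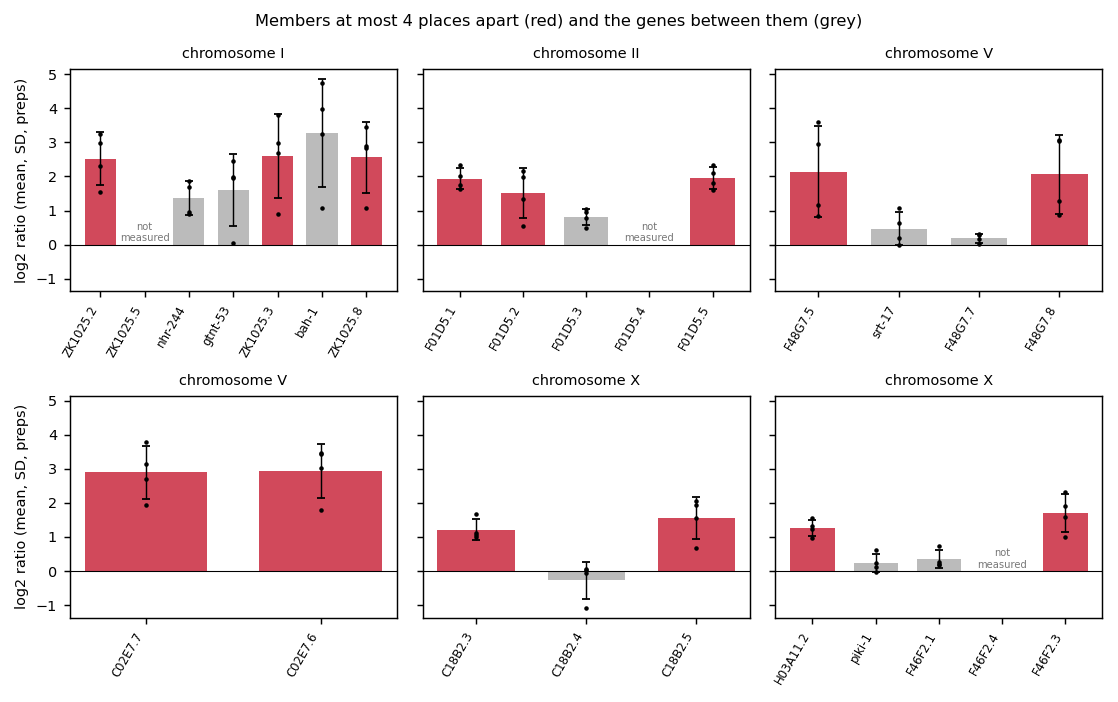
Mean log2 ratio (vertical axis; bars with SD over 4 preps, points for the preps) of consecutive genes in 6 stretches, in order along the chromosome, with the 69 members in red and other genes in grey. The grey bars in the first panel, nhr-244, gtnt-53 and bah-1, are at 1.36, 1.61 and 3.27, and those in the last 2 panels are at 0.35 or lower.

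Most members had no high gene measured right beside them. Of the 59 members with a measured next gene, 11 had one that was a member or had a mean of at least 1.2. Within 4 places, 24 of the 68 placed members had a measured gene at a mean of at least 1.2, members included. The same shares were not computed over all genes, so nothing is read from these counts. With the stretches included, the 89 measured non-members next to a member had a median log2 ratio of 0.12. The 6823 genes next to any sequence-named gene had a median of -0.01. Of the 89 genes, 7, or 7.87%, had a mean of 1.2 or higher, against 2.49% of the 6823 and 2.89% of all genes. Among the 7 were bah-1 and gtnt-53 of the stretch on chromosome I. The genes next to the 188 named genes within the same limits had a median of 0.16, with 5.97% at 1.2 or higher. Medians at 2, 3, 4 and 5 places were 0.15, 0.22, 0.13 and 0.01. Without prep 3 the median of the next genes was 0.15. The quartiles around the members and around all sequence-named genes overlapped at every place from 1 to 10. Quartiles give the spread of single genes and not the precision of a median, so nothing is read from the overlap. The difference was not tested.

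**Figure D5:**
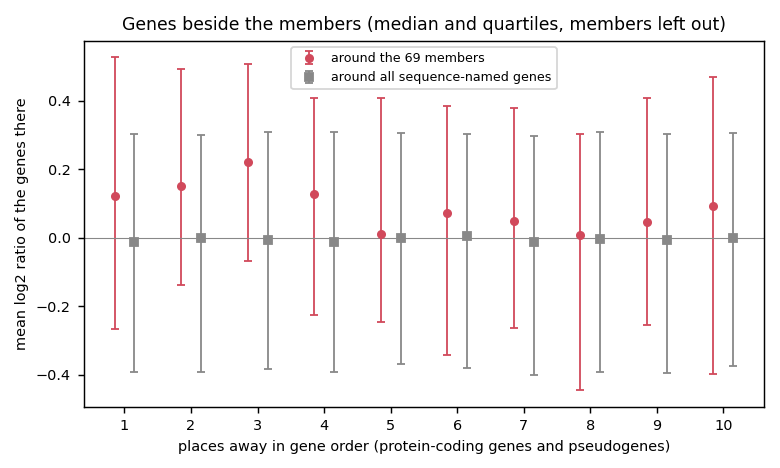
Mean log2 ratio (vertical axis; median as points, quartiles as bars) of measured genes 1 to 10 places away in gene order (horizontal axis), around the 69 members (circles, members left out) and around all sequence-named genes (squares). Medians around the members are 0.12 to 0.22 at places 1 to 4 and 0.01 at place 5. The quartile bars of both sets overlap at every place, but they give the spread of single genes and not the precision of the medians.

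Several single members did lie next to high genes, and those given here were picked after their values were seen. ZK1307.1 lay beside gstk-1, a glutathione S-transferase gene of the kappa class, which had 1.82, 1.81, 1.43 and 1.54. In both genes prep 1 was the highest and prep 3 the lowest. C18A11.3 lay beside dim-1, a gene of muscle attachment, at 1.97 ± 0.42, and T08B1.1 beside the troponin T gene tnt-4 at 1.71 ± 0.55. F49F1.5 lay beside drd-50, which had 2.71 and 2.22 in preps 1 and 2 but 0.45 and 0.07 in preps 3 and 4, while F49F1.5 itself was highest in prep 3. F46C8.1 lay beside F46C8.8 at 1.21 ± 0.86, a gene that had a mean above the limit but -0.05 in prep 3.

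Others had high genes a few places off. T06E4.7 lay 2 and 3 places from idpc-5, at 2.00 ± 1.14, and idpc-6, at 2.68 ± 1.01, and all 3 had their lowest value in prep 3. F55G11.2 lay 3 places from dod-17, named as downstream of the insulin-regulated factor DAF-16, at 2.39 ± 0.42, and 2 places from mbug-1 at 1.64 ± 0.66. On its other side, though, the next gene dod-22 was at -1.44 ± 0.39, and the genes of the same clone, F55G11.8, F55G11.7 and F55G11.6, were at 0.06, 0.15 and 0.46. The high genes near F55G11.2 thus all lay on one side of it. T12D8.9 lay 3 places from act-5, the actin gene of the intestinal microvilli, at 1.99 ± 0.52. C29F3.7 lay 4 places from C29F3.3 at 1.64 ± 1.56, and both had preps 1 and 2 above preps 3 and 4.

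A few members lay next to genes that were low, and those named here were chosen after their values were seen. C45B2.2 had C45B2.3 at -1.89 on one side and spig-20 on the other, with -1.47, -0.03, 0.19 and -3.34, so that the low mean of spig-20 rests on preps 1 and 4. F49E2.5 lay next to nuc-1, the gene of a lysosomal DNase, at -1.47. K10D3.4 lay next to taf-11.2, a subunit gene of the general transcription factor TFIID, at -2.18, and F54D5.15 next to F54D5.5 at -1.39. In all, 5 of the 89 next genes, or 5.62%, had a mean of -1.2 or lower, against 6.02% around all sequence-named genes and 5.72% of all genes.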

How the data were processed

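The authors deposited log2 ratios, 1 per probe and array, with 21209 to 21386 probes measured per array. The sources used here do not give their scanning, background correction or normalization. No intensities were used, so dim and saturated spots could not be told from others, and the precision is limited by the 4 arrays. The direction is taken from the channel order in the labels, which name no dyes. Nothing in the labels ties the preps to separate cultures, so p-values measure the spread between these preps, which may be technical.

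Each array's median over all probes (0.0158, 0.0580, 0.0552 and 0.0186 for preps 1 to 4) was subtracted and the probes of a gene were averaged. Of 21632 probes, 16450 had 1 gene in the platform annotation, 247 had several and 4935 were unnamed here. Members were sequence-named genes within the limits stated above. The members, gene lists and marker lists were chosen with earlier results of these data known. Genes were named by a written rule: the 12 highest means, the 6 smallest and 6 largest SDs, the 3 nearest each side of a limit, members next to another member, and members with an outlying prep. Other members and neighbours were named after their values were seen. The rule's protein groups could not be formed without sequences. limma 3.58.1 in R 4.3.3 fitted the mean against 0 for features on at least 3 arrays, with Benjamini-Hochberg adjustment. It was also run on data simulated for this comparison, with 200 of 19153 features changed. On the log2 scale it recovered 0% of changes of 0.5, 24% of 1, 86% of 2 and 98% of 4. False calls were 2 of 106. The simulated preps had independent noise, without the deviation of prep 3, the months or the shared reference. Far fewer features were changed than the 2936 called in the data, so recovery and false calls there may differ. Tables were made with pandas 2.3.3 in Python 3.11.15 and figures with matplotlib 3.10.9. Gene order, chromosome and class came from a RefSeq table of assembly WBcel235, and no coordinates are given because no genome build is named for the array. Alternatives covered centring, scaling, probe averaging, the limits, the fit and leaving out each prep.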

Additional observations from a re-analysis of the deposited data

Results flagged for a closer look

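In 4 of the 69 genes 1 prep lay apart from the other 3, with a gap that was a larger share of the gene's whole range than Dixon's critical value for 4 samples. Chance alone marks about 1 in 20 such groups. F32B5.1 had 1.28 in prep 3, against 2.29, 2.16 and 2.26 in preps 1, 2 and 4. F28H7.3 had 0.95 in prep 4, against 1.79, 1.81 and 1.69 in preps 1 to 3. H43E16.1 had 0.56 in prep 3, where its 2 probes differed, against 1.45, 1.60 and 1.62 in the other preps. K06H6.2 had 2.74 in prep 1, against 0.84, 0.74 and 0.50 in the others. Prep 3 or prep 4 was thus the low one in 3 genes, and in K06H6.2 prep 1 was the high one.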

How the results depend on the processing

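The number of genes within the limits was 69. It was 66 to 79 under other centring, scaling and probe averaging, 41 with a mean of 1.5 or higher and 113 with no minimum per prep. The genes themselves changed too. Centring within 32 runs of neighbouring probes gave 70 genes, with 7 members lost and 8 genes gained. Scaling to equal spread lost 5 members and gained 2 genes, and quantile normalization lost 2 and gained 5. Leaving out 1 prep gave 62 to 150 genes, the 150 without prep 3. The median of the 69 genes, 1.63, was 1.54 to 1.74 under other centring, scaling and probe averaging and with a prep left out. It was not recomputed for the changed limits. Over all 19941 features, limma made 2936 calls, of which 968 were higher in L2. Tested against a fold of 1.5, it made 652 calls, of which 149 were higher, and 35 members passed. Leaving out a prep gave 1157 to 3202 calls: 1157 without prep 1, 1204 without prep 2 and 1699 without prep 4. Of the 19263 to 19421 features tested then, 285 to 1362 were called higher, the 1362 without prep 3. The members past the threshold were then 53 to 66, against 68. The next genes' median of 0.12 was 0.19 with arrays centred on the mean, and 0.12 to 0.15 with a prep left out. Of the single-gene values under these alternatives, 1 moved by more than its SD, 1019 did not, and none changed sign. These counts were partly fixed in advance. Leaving out 1 of 4 preps cannot move a mean by more than the SD of those preps. Taking the median of the probes changes nothing in a gene with 1 probe. A member could not change sign with a prep left out, because every prep had to pass the limit. The counts are therefore not read as a sign of stability. Centring within 32 runs of neighbouring probes, the distance of 4 genes, the next-gene medians and the count of members called were chosen after seeing the data. Protein and promoter alternatives were not run, because their sequences were not analysed here. No paired analysis was possible because there is 1 group. With 4 arrays and no intensities, no floor or counting error can be given.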
